A study of Drosophila melanogaster with 4 samples.

Results

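The genes described here are the cytochrome P450 genes of Drosophila melanogaster, chosen by symbol: every row of the deposited expression table whose name begins with Cyp and a digit. Of 13012 genes in the table, 86 met this rule. One of them, Cyp1, is the gene of cyclophilin 1, a peptidyl-prolyl isomerase and not a P450, so it was set apart, and 85 P450 genes remained, 2 of them annotated as pseudogenes (Cyp6a15Psi and Cyp6t2Psi). By family number 40 belonged to the CYP3 clan, 32 to the CYP4 clan, 9 to the mitochondrial clan and 4 to the CYP2 clan. P450 genes listed under other symbols (dib, phm, spo, spok, shd and sad) did not meet the rule and are not in these counts.

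The study asked how the transcription factor MEF2 in flight muscle shapes lipid storage and gene expression on rich diets. Thoraces were dissected from females fed a high calorie diet, for which the labels give an age of 10 days. RNA-seq was run on 1 library for each of 4 conditions, each from a pool of 8 thoraces. Control flies (Act88FGS>w1118) carried the GeneSwitch driver of thoracic flight muscle without an RNAi construct, and MEF2 RNAi flies (Act88FGS>UAS-MEF2 RNAi) carried the same driver with a UAS construct against Mef2. GeneSwitch is a GAL4 fusion that becomes active when flies eat RU486, so each genotype was kept with RU486 (+RU486) or with its ethanol vehicle (-RU486). RU486 was fed to the whole fly while the driver is one of muscle. The thorax also holds gut, fat body, epidermis, neurons and hemocytes, whereas the ovaries, the Malpighian tubules and most oenocytes lie in the abdomen. A genotype difference includes the RNAi construct, the site where it sits and any other difference between the strains, which cannot be told apart here.

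P450 enzymes carry a haem group and insert an oxygen atom into their substrates, with electrons from NADPH passed on by a reductase. Most insect P450s sit in the endoplasmic reticulum and use cytochrome P450 reductase (Cpr), while those of the mitochondrial clan use an adrenodoxin-type ferredoxin and its reductase. Some have fixed tasks, such as making and clearing the moulting hormone ecdysone or the waxy hydrocarbons of the cuticle, and many others, above all in the CYP3 and CYP4 clans, oxidise plant toxins, insecticides and drugs in gut, fat body and Malpighian tubule. RU486 (mifepristone) is itself a synthetic steroid, so flies of both genotypes that ate it had taken up a foreign compound.

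The deposited values are on a log2 scale and centred gene by gene, so that the 4 values of a gene sum to 0. A value thus gives a gene's level in one library against its own mean over the 4 libraries. It holds no expression level, no read depth and no replicate spread, and genes cannot be ranked by abundance. With 1 library per condition there are no replicates, so no p-value, standard deviation or counting interval is given anywhere. Whether the thorax was cleanly dissected cannot be read from centred values either, since a marker gene shows no level. Mef2, the targeted gene, had deposited values of -0.10 and 0.22 in w1118 flies without and with RU486, and of 0.25 and -0.38 in MEF2 RNAi flies without and with RU486. Its change with RU486 in MEF2 RNAi flies was -0.63 as deposited and -0.26 after the all-gene median of each library was subtracted, and in w1118 flies it was 0.32 and -0.03.

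The libraries also stood at different levels as a whole. Over all genes the median deposited value was -0.18 in w1118 flies without RU486, 0.17 in w1118 flies with RU486, 0.19 in MEF2 RNAi flies without RU486 and -0.18 in MEF2 RNAi flies with RU486. The P450 genes followed with medians of -0.19, 0.19, 0.21 and -0.21 in the same order, and 66 of 85 members (77.6%) carried exactly these signs, beside 73.2% of all genes. Values are therefore given as deposited, and changes are given after the all-gene median of a library was subtracted from its values, called the relative scale. A fold is 2 to the power of such a difference, and a gene is counted as past the threshold at or above 1.5-fold or at or below 0.65-fold.

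A group of rows needs separate reading. In 7 P450 genes (Cyp316a1, Cyp313a3, Cyp312a1, Cyp4ad1, Cyp313a5, Cyp12d1-d and Cyp4c3) no deposited value lay farther than 0.1 from 0, and these are called flat. Flat rows made up 8.24% of the members and 16.1% of all genes, and 6 of the 7 were of the CYP4 clan. Because flat rows lack the shift of their libraries, subtracting the medians gives them a change: the relative RU486 change of the 7 flat members lay between 0.29 and 0.49 in MEF2 RNAi flies and between -0.37 and -0.18 in w1118 flies. Nothing is read from these values. In addition, 9 members had the same 4 values as some other gene of the table. These were Cyp12d1-d, Cyp313a2, Cyp313a3, Cyp313a5, Cyp316a1, Cyp4ad1, Cyp6a16, Cyp6t2Psi and Cyp9c1, some of them flat.

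Among the other 78 members the spread over the libraries was somewhat wider than among all genes that are not flat. On the relative scale the distance from the lowest to the highest library had a median of 0.25 over the 78 members and 0.21 over those genes, and it was above 0.5 in 8 members (10.3%) and in 7.82% of those genes. The 3 widest were Cyp6a19 at 1.68, Cyp6a18 at 1.54 and Cyp4e3 at 0.90, which ranked at places 38, 53 and 240 of the 13012 genes. The relative value was highest in w1118 flies with RU486 for 29 of the 78 (37.2%, beside 32.4% of all genes that are not flat) and highest in MEF2 RNAi flies with RU486 for 15 (19.2%, beside 18.7%). The widest distances belonged to single genes with different patterns.

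**Figure D1:**
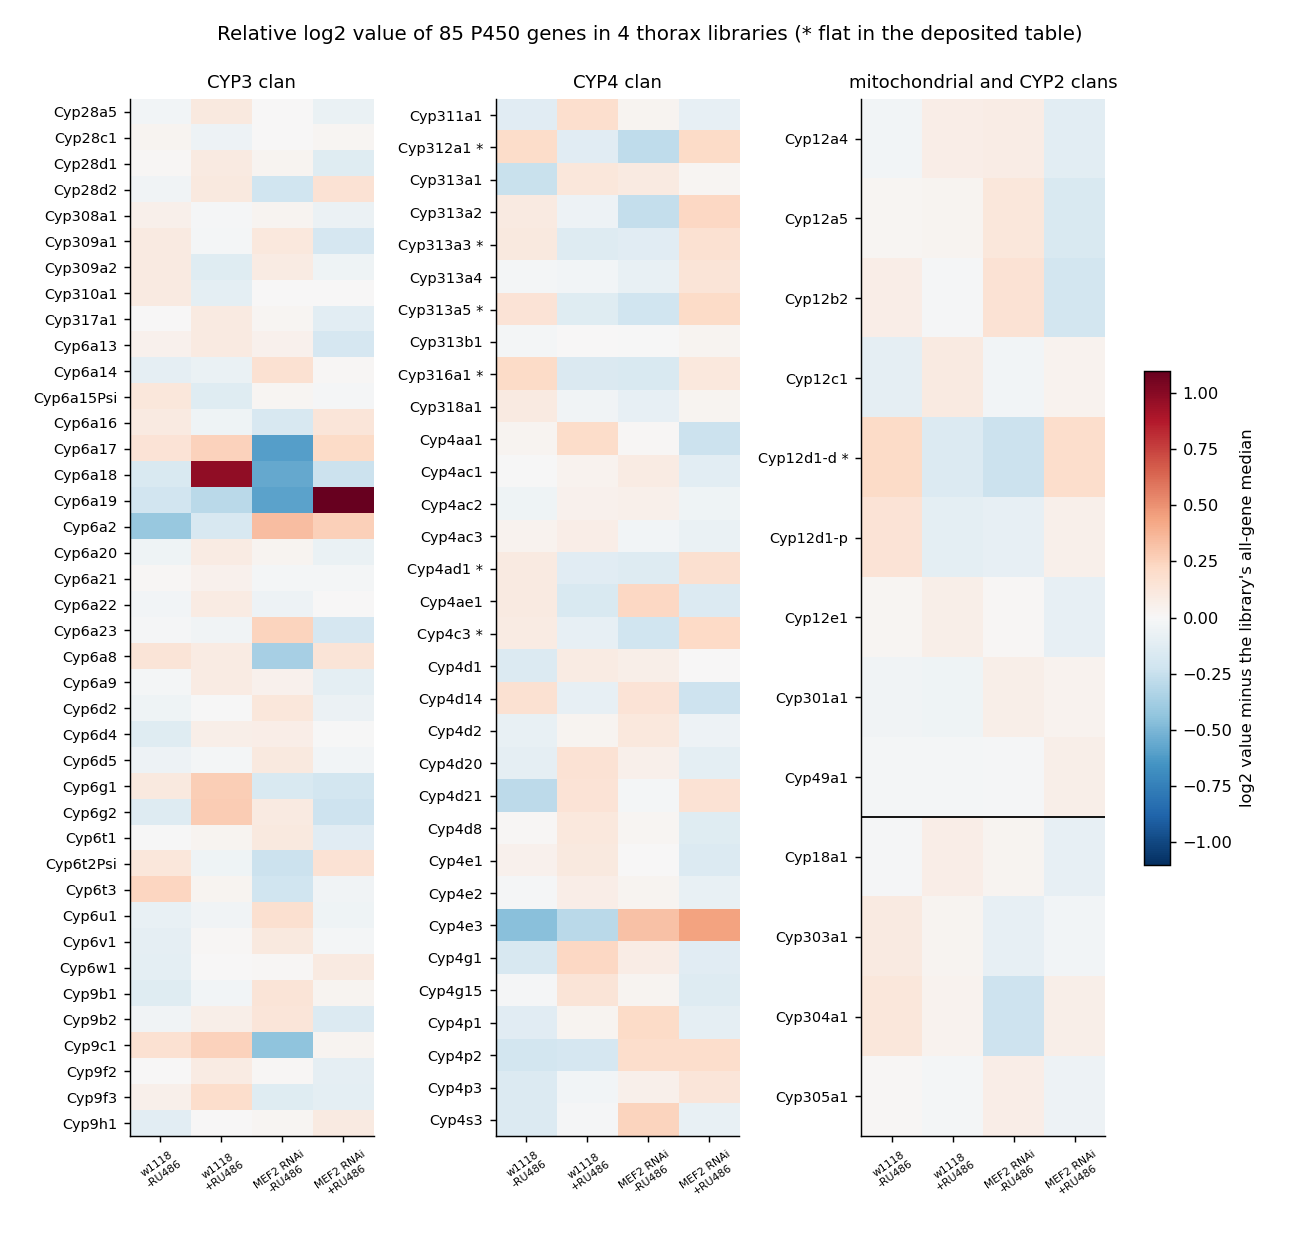
Relative log2 values (deposited value minus the all-gene median of the library) of the 85 P450 genes in the 4 libraries, by clan, on a colour scale centred on 0 (blue below, red above). Each cell is 1 library, asterisks mark the 7 flat members, and the line in the right panel parts the 9 mitochondrial genes from the 4 of the CYP2 clan. Strong colour is limited to single genes, chiefly Cyp6a17, Cyp6a18, Cyp6a19, Cyp6a2, Cyp9c1 and Cyp4e3.

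With RU486 in MEF2 RNAi flies, the condition meant to switch on the knockdown, the P450 genes as a group stayed near the median of all genes. Their median relative change was -0.08 (quartiles -0.16 and 0.12), beside -0.01 for all genes. On the relative scale 2 members were at or above 1.5-fold, Cyp6a19 and Cyp6a17, which is 2.35% of the members beside 2.14% of all genes. No member was at or below 0.65-fold, beside 0.438% of all genes. On the deposited scale, which keeps the shift of the libraries, 1 member was at or above 1.5-fold (0.807% of all genes) and 10 were at or below 0.65-fold (6.99% of all genes). These 10 were Cyp12a5, Cyp12b2, Cyp309a1, Cyp4ae1, Cyp4d14, Cyp4p1, Cyp4s3, Cyp6a23, Cyp6g2 and Cyp9b2.

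Cyp6a19 (chromosome 2R, 14877786 to 14879752, plus strand, in the BDGP6 annotation) was the member with the largest change. Its deposited values were -0.39 and -0.12 in w1118 flies without and with RU486, and -0.40 and 0.92 in MEF2 RNAi flies without and with RU486. The library of MEF2 RNAi flies with RU486 was thus high and the other 3 were low. The relative change with RU486 in MEF2 RNAi flies was 1.68, a fold of 3.21, against -0.08 in w1118 flies, a fold of 0.95. As deposited the change in MEF2 RNAi flies was 1.32, and against the median of 86 ribosomal protein genes it was 1.79. The same library held the highest relative value of all 8 germline markers on the list (osk, nos, vas, bam, otu, dhd, wisp and orb) and of 22.7% of all genes. The germline markers' median deposited value was 1.13 there and -0.47, -0.16 and -0.45 in w1118 flies without and with RU486 and MEF2 RNAi flies without RU486. Single germline markers ranged from 0.07 (orb) to 1.70 (dhd) in that library, and their part in the value of Cyp6a19 was not tested. The last 397 bases of Cyp6a19 overlap Cyp6a9, which lies on the opposite strand and had deposited values of -0.20, 0.25, 0.23 and -0.28 in the order used above.

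Cyp6a17 (2R, 14873953 to 14875739, plus strand), an enzyme that sets temperature preference in the fly brain, was the other member past the threshold. Its deposited values were -0.03 and 0.42 in w1118 flies without and with RU486, and -0.42 and 0.03 in MEF2 RNAi flies without and with RU486. It was lowest in MEF2 RNAi flies without RU486, and both +RU486 libraries were above the -RU486 library of their genotype. The relative change was 0.82 (1.76-fold) in MEF2 RNAi flies and 0.11 (1.08-fold) in w1118 flies, while the deposited changes were 0.45 and 0.46. The difference between the genotypes in the RU486 change of this gene is thus present on the relative scale and absent on the deposited one. As deposited, MEF2 RNAi minus w1118 was -0.386 without and -0.395 with RU486.

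Cyp6a8 and Cyp9c1 shared with Cyp6a17 a lowest relative value in MEF2 RNAi flies without RU486, as did other members. Among those others were Cyp6a19 at -0.59 and Cyp6a18 at -0.57. Cyp6a8, a gene known for its induction by caffeine and barbiturates, had deposited values of -0.04 and 0.26 in w1118 flies without and with RU486, and of -0.18 and -0.04 in MEF2 RNAi flies. Cyp9c1 had deposited values of -0.01 and 0.42 in w1118 flies and of -0.26 and -0.15 in MEF2 RNAi flies, again without and with RU486. Cyp9c1 is among the members that share all 4 values with another gene. It also overlaps CG13594 and asRNA:CR43787 on the opposite strand, by up to 1861 bases. The relative change with RU486 in MEF2 RNAi flies was 0.51 for Cyp6a8 and 0.47 for Cyp9c1, both under the threshold. At the low end of this comparison stood Cyp6a23 at -0.43, Cyp4ae1 at -0.38, Cyp4d14 at -0.38, Cyp12b2 at -0.36 and Cyp4s3 at -0.33. The lowest of these, Cyp6a23, was at 0.744-fold, so on the relative scale no P450 gene came near the lower threshold.

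With RU486 in w1118 flies, where the driver has no RNAi construct to switch on, the group again stayed near the median. The compound, the activated driver and any other difference between these single libraries cannot be told apart. The median relative change was 0.05 (quartiles -0.08 and 0.13), beside 0.01 for all genes. On the relative scale 1 member, Cyp6a18, was at or above 1.5-fold (1.18% of members, 1.25% of all genes), and none was at or below 0.65-fold (0.192% of all genes). As deposited, 9 members were at or above 1.5-fold (6.54% of all genes), namely Cyp6a18, Cyp4d21, Cyp6g2, Cyp4g1, Cyp313a1, Cyp311a1, Cyp4d20, Cyp4d1 and Cyp6a2. As deposited, no member was at or below 0.65-fold (0.0384% of all genes).

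Cyp6a18 (chromosome 3R, 27478675 to 27482904, plus strand) had deposited values of -0.35 and 1.14 in w1118 flies without and with RU486, and of -0.38 and -0.41 in MEF2 RNAi flies without and with RU486. Only the library of w1118 flies with RU486 was high. The relative change was 1.14 in w1118 flies, a fold of 2.21, and 0.33 in MEF2 RNAi flies, a fold of 1.26. As deposited the change was 1.49 in w1118 flies and -0.03 in MEF2 RNAi flies. Markers of other tissues were high in the same library. Uro, a marker of the Malpighian tubule, stood at 1.33 there and at -0.48, -0.40 and -0.45 elsewhere, and the digestive proteases Jon99Fi and Jon99Fii stood at 1.35 and 1.42. Over the lists, 4 of 7 Malpighian tubule markers and 11 of 21 midgut markers had their highest relative value in w1118 flies with RU486, beside 27.2% of all genes and 32.4% of those not flat. So did 7 of 8 flight muscle markers and 4 of 5 oenocyte markers. The median deposited values in that library were 0.51 for the Malpighian tubule and 0.31 for the midgut list, of which 1 and 2 genes were flat. Their part in the value of Cyp6a18 was not tested, and in pooled thoraces more cells of a type and more RNA per cell cannot be told apart.

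**Figure D2:**
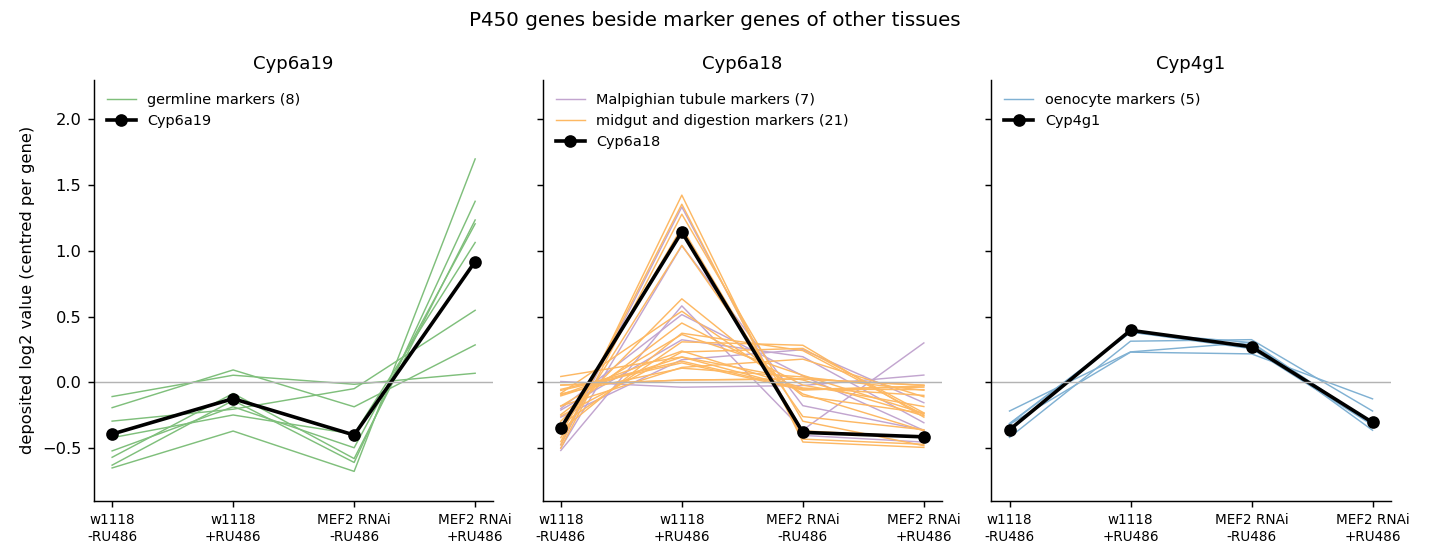
Deposited log2 values (vertical axis) in the 4 libraries (horizontal axis) of Cyp6a19 with 8 germline markers, Cyp6a18 with 7 Malpighian tubule and 21 midgut markers, and Cyp4g1 with 5 oenocyte markers. Each line joins the values of 1 gene, and the black line is the P450 gene. Cyp6a19 and the germline markers are highest in MEF2 RNAi flies with RU486, Cyp6a18 peaks in w1118 flies with RU486 as do several gut and tubule markers, and Cyp4g1 has the same sign as the oenocyte markers in each library.

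The next highest changes in w1118 flies were under the threshold on the relative scale. Cyp4d21, the sex-specific enzyme sxe1, which acts in male courtship, had deposited values of -0.47 and 0.32 in w1118 flies without and with RU486, and of 0.16 and -0.02 in MEF2 RNAi flies. Its relative change was 0.44 in w1118 and 0.18 in MEF2 RNAi flies, so both genotypes were higher with RU486 on this scale, while as deposited the change in MEF2 RNAi flies was -0.18. Cyp4g1, the oenocyte decarbonylase that finishes cuticular hydrocarbons, had deposited values of -0.36, 0.40, 0.27 and -0.30 in w1118 flies without and with RU486 and MEF2 RNAi flies without and with RU486. Its relative change was 0.41 in w1118 flies and -0.21 in MEF2 RNAi flies. Cyp4g1 overlaps CG32816 on the same strand by 2279 bases, so some of its reads could be counted for either gene. The 5 oenocyte markers other than Cyp4g1 (eloF, Desat1, FASN2, FASN3 and CG3999) had medians of -0.32, 0.31, 0.30 and -0.32 in the same order, and all 5 had the signs of Cyp4g1 in each library, which are also the signs of the all-gene medians. Single markers differed from it: Desat1 stood at 0.23 in w1118 flies with RU486 and at -0.13 in MEF2 RNAi flies with RU486.

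No P450 gene was past a threshold with RU486 in both genotypes, in either direction, on the relative scale, and none was past opposite thresholds. Only 2 members in MEF2 RNAi flies (2.14% of all genes) and 1 in w1118 flies (1.25% of all genes) were past a threshold at all. These counts left little room for overlap, and the share of all genes past both was not counted. As deposited, Cyp6g2 was past opposite thresholds, at -0.69 in MEF2 RNAi flies and 0.77 in w1118 flies. The RU486 changes of both genotypes come from separate libraries, and the opposite shifts of those libraries nearly cancel in their mean. Over the members this mean had a median of 0.00 (quartiles -0.05 and 0.09), beside 0.01 for all genes. In the mean, 2 members were at or above 1.5-fold (1.21% of all genes), Cyp6a19 at 0.80 and Cyp6a18 at 0.74, each carried by 1 library of the 4, and none was at or below 0.65-fold (0.246% of all genes). The next in order were Cyp6a17 at 0.46, Cyp4d21 at 0.31 and Cyp9c1 at 0.28, all under the threshold. At the other end, Cyp4ae1 at -0.32 and Cyp4d14 at -0.32 were lower with RU486 in both genotypes on the relative scale, while as deposited they were lower in MEF2 RNAi flies only, with changes of 0.08 and 0.10 in w1118 flies.

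**Figure D3:**
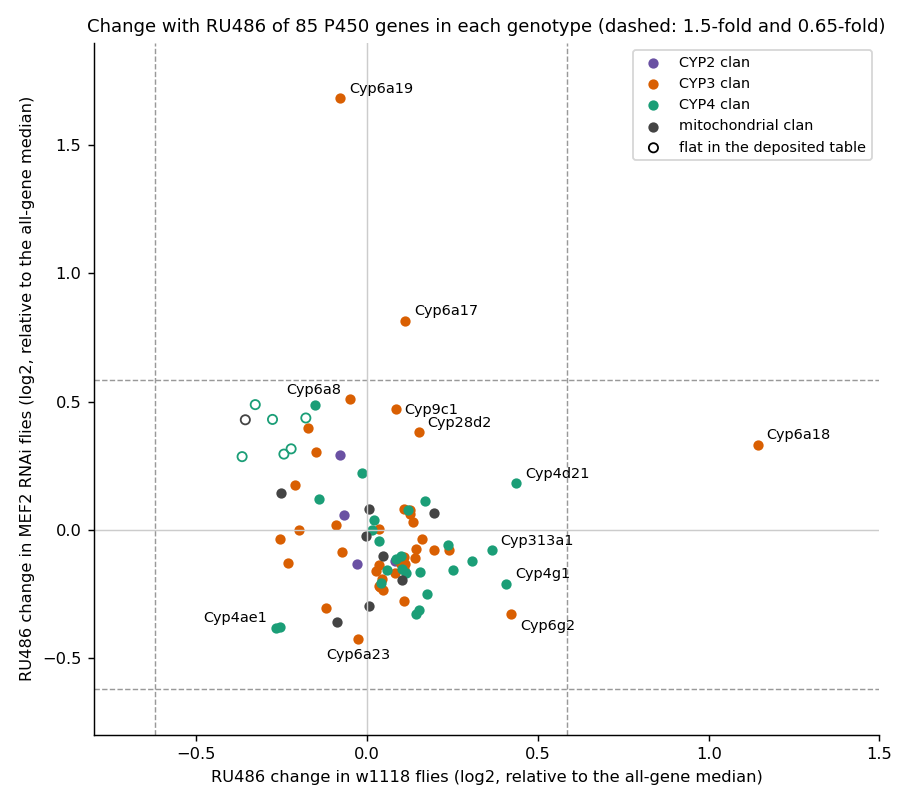
Relative log2 change with RU486 of the 85 P450 genes in w1118 flies (horizontal axis) and in MEF2 RNAi flies (vertical axis), coloured by clan. Open circles are flat members, dashed lines mark 1.5-fold and 0.65-fold, and each point rests on 1 library per condition. Cyp6a19 (1.68) and Cyp6a17 (0.82) lie above the line for MEF2 RNAi flies, Cyp6a18 (1.14) lies past the line for w1118 flies, and no point lies in a corner beyond both lines.

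Genes that act after P450s were read from the same libraries. Glutathione S-transferases conjugate reactive products of oxidation, and of 35 Gst genes 4 were at or above 1.5-fold on the relative scale with RU486 in MEF2 RNAi flies (2.14% of all genes) and 3 in w1118 flies (1.25% of all genes). As deposited the order turned round, with 3 in MEF2 RNAi flies (0.807% of all genes) and 10 in w1118 flies (6.54% of all genes). GstD5 had deposited values of -0.76 and 0.51 in w1118 flies without and with RU486, and of -0.69 and 0.95 in MEF2 RNAi flies. GstD6 had values of -0.69, 0.56, -0.64 and 0.77 and GstD7 of -0.64, 0.65, -0.55 and 0.55 in the same order. In all 3 genes both +RU486 libraries were above both -RU486 libraries, with relative changes of 2.01, 1.78 and 1.46 in MEF2 RNAi flies and 0.92, 0.90 and 0.93 in w1118 flies for GstD5, GstD6 and GstD7. Mdr50, an efflux transporter, was also higher with RU486 in both genotypes, by 0.79 in MEF2 RNAi and 1.08 in w1118 flies on the relative scale, with its highest deposited value, 0.99, in w1118 flies with RU486. Of the 17 Ugt genes, which attach sugars to P450 products, 5 were flat and none was past a threshold with RU486 in either genotype on the relative scale, while as deposited Ugt36Bb was at 0.60 in w1118 flies, just past it.

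The electron donors and regulators of the P450s were within the thresholds on the relative scale. Cpr had deposited values of -0.27, 0.28, 0.28 and -0.29, and all 6 partners found (Cpr, Cyt-b5, Cyt-b5-r, Fdx1, Fdx2 and dare) were within the thresholds in all 5 differences on that scale. As deposited, Fdx2 at -0.65 with RU486 in MEF2 RNAi flies and Cyt-b5 at 0.59 between the genotypes without RU486 were past a threshold, and all 6 were at or below 0.65-fold in the difference of the RU486 changes, as were 63.5% of all genes. Their median relative change with RU486 was -0.21 in MEF2 RNAi flies and 0.01 in w1118 flies. The ferredoxins Fdx1 and Fdx2 went from 0.34 to -0.25 and from 0.31 to -0.33 with RU486 in MEF2 RNAi flies as deposited. The ferredoxin reductase gene dare went from 0.29 to -0.33. On the relative scale the changes of Fdx1, Fdx2 and dare were -0.23, -0.28 and -0.25. Of the regulators, 12 were found (Hr96, cnc, Keap1, maf-S, tgo, ss, Met, gce, EcR, usp, Hr38 and Hnf4), and none was past a threshold in any of the 5 differences on the relative scale. As deposited, gce was at -0.77 with RU486 in MEF2 RNAi flies, ss was at 0.64 with RU486 in w1118 flies and at -0.72 between the genotypes with RU486, and all 12 were at or below 0.65-fold in the difference of the RU486 changes. Hr96, the xenobiotic receptor, had deposited values of -0.23, 0.16, 0.27 and -0.20, and cnc, the fly counterpart of Nrf2, had -0.25, 0.28, 0.22 and -0.25.

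Between the genotypes without RU486, when the driver is not induced, 2 members were at or above 1.5-fold in MEF2 RNAi flies on the relative scale (2.35% of members, 0.246% of all genes), Cyp4e3 and Cyp6a2. One was at or below 0.65-fold, Cyp6a17 at 0.593-fold (1.18% of members, 0.123% of all genes), whose log2 difference of -0.75 became -0.39 as deposited, within the threshold. Cyp9c1, at 0.655-fold, was just above the lower threshold, and with flat rows left out 2 members were at or below it. The median difference of the members was 0.02 (quartiles -0.19 and 0.15), beside 0.01 for all genes. As deposited, 13 members were at or above 1.5-fold (6% of all genes) and none was at or below 0.65-fold (0.00769% of all genes).

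Cyp4e3 (chromosome 2L, 9747839 to 9750071, minus strand), which protects flies from permethrin when active in the Malpighian tubule, had deposited values of -0.64 and -0.13 in w1118 flies without and with RU486, and of 0.51 and 0.26 in MEF2 RNAi flies. Both libraries of MEF2 RNAi flies were above both of w1118 flies. The relative difference was 0.79 without RU486 (1.73-fold) and 0.73 with RU486 (1.66-fold), and the relative changes with RU486 were 0.17 in w1118 flies and 0.11 in MEF2 RNAi flies. As deposited the genotype difference was 1.15 without RU486 and 0.38 with RU486, the latter under the threshold. The other Cyp4e genes did not share this: Cyp4e1 differed by -0.05 and -0.26 and Cyp4e2 by 0.04 and -0.16 between the genotypes without and with RU486.

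Cyp6a2 (2R, 6779749 to 6781491, minus strand), which metabolises DDT and is inducible by barbiturates, had deposited values of -0.60 and -0.01 in w1118 flies without and with RU486, and of 0.53 and 0.08 in MEF2 RNAi flies. The relative difference was 0.76 without RU486 (1.69-fold) and 0.44 with RU486 (1.36-fold), again with both libraries of MEF2 RNAi flies on top. As deposited these differences were 1.13 and 0.09, and against the ribosomal protein genes the first was 0.58, just under the threshold of 0.585. Over its whole length Cyp6a2 lies within Epac on the same strand, so some of its reads could be counted for either gene. Cyp4p2 (2R, 9237512 to 9239831, plus strand) had the same order at a smaller size. Its deposited values were -0.38 and -0.02 in w1118 flies and 0.38 and 0.02 in MEF2 RNAi flies without and with RU486, and its relative difference was 0.39 without and 0.38 with RU486. Its neighbours Cyp4p1 and Cyp4p3 differed by 0.34 and 0.21 without RU486 and by -0.13 and 0.17 with RU486, and all 3 lie within hig, which is on the opposite strand.

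Between the genotypes with RU486, 2 members were at or above 1.5-fold in MEF2 RNAi flies on the relative scale (2.35% of members, 1.34% of all genes), Cyp6a19 at 2.62-fold and Cyp4e3 at 1.66-fold. One was at or below 0.65-fold, Cyp6a18 at 0.432-fold (1.18% of members, 0.423% of all genes). The median difference was -0.06 (quartiles -0.19 and 0.09), beside -0.02 for all genes. As deposited, 1 member was at or above 1.5-fold (0.599% of all genes) and 9 were at or below 0.65-fold (3.87% of all genes), namely Cyp311a1, Cyp4aa1, Cyp4g1, Cyp4g15, Cyp6a13, Cyp6a18, Cyp6g1, Cyp6g2 and Cyp9f3. Cyp4g15, a relative of Cyp4g1 active in the nervous system, was lower in MEF2 RNAi flies with RU486 by 0.28 on the relative scale, with deposited values of 0.31 in w1118 and -0.32 in MEF2 RNAi flies.

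In the mean of both genotype differences, which come from separate libraries, 2 members were at or above 1.5-fold (0.338% of all genes), Cyp4e3 at 0.76 and Cyp6a2 at 0.60 (0.54 and under the threshold against the ribosomal protein genes), and 1 was at or below 0.65-fold (0.208% of all genes), Cyp6a18 at -0.80. The values of Cyp6a18 without and with RU486 were -0.40 and -1.21, so its mean rested mostly on 1 library. Next in the mean came Cyp9c1 at -0.42, Cyp6a17 at -0.40, Cyp6g1 at -0.37 and Cyp6t3 at -0.26, all under the threshold. Cyp9c1 was lower in MEF2 RNAi flies in both treatments on all 3 scales, but it shares all its values with another gene. Cyp6g1 was 0.10 higher without RU486 as deposited, and against the ribosomal protein genes Cyp6a17 and Cyp6t3 differed by 0.01 and -0.01 with RU486. The median over the members was -0.04, beside -0.01 for all genes. Of the 85 members, 35 were above 0 and 50 below, beside 6016 above and 6996 below among all 13012 genes.

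**Figure D4:**
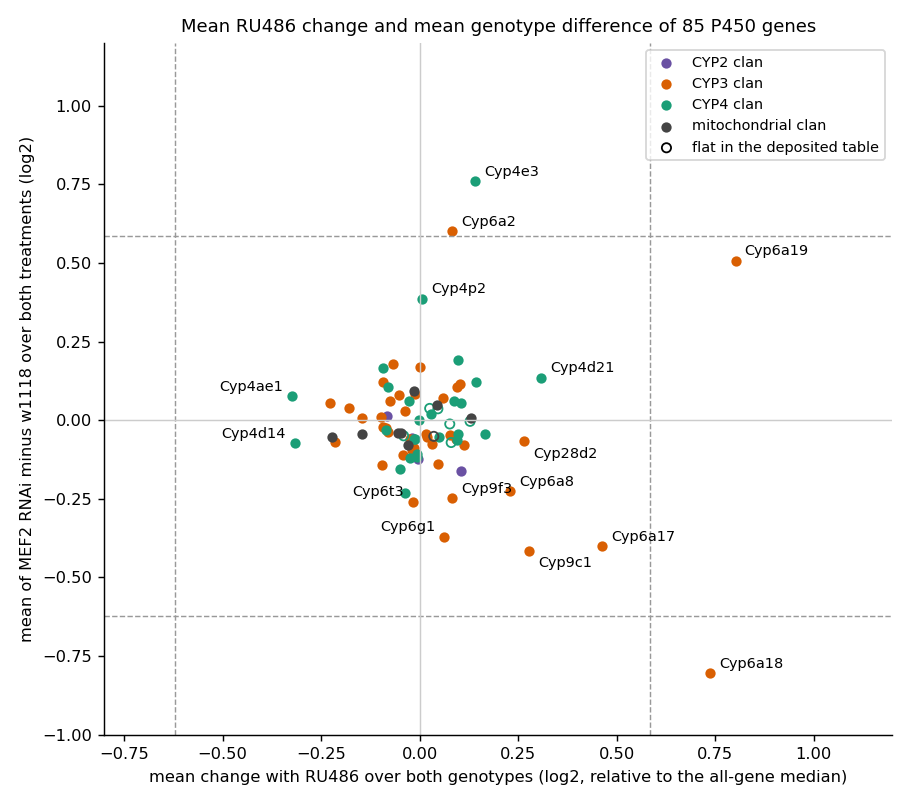
Mean relative change with RU486 over both genotypes (horizontal axis) and mean relative difference of MEF2 RNAi minus w1118 over both treatments (vertical axis) of the 85 P450 genes, in log2 units. Colours give the clan, open circles are flat members and dashed lines mark 1.5-fold and 0.65-fold. Cyp4e3 (0.76) and Cyp6a2 (0.60) lie above the upper line on the genotype axis, Cyp6a18 (-0.80) below the lower one, and Cyp6a19 (0.80) and Cyp6a18 (0.74) past the line on the RU486 axis.

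The difference of the RU486 changes, MEF2 RNAi minus w1118, asks which genes responded to RU486 in one genotype otherwise than in the other. On the relative scale 8 members were at or above 1.5-fold (9.41% of members, 15.8% of all genes). Of these 8, 5 were flat, as were 1708 of the 2062 genes counted in the whole table. The other 3 were Cyp6a19 at 1.76, Cyp6a17 at 0.70 and Cyp313a2 at 0.64, and for Cyp6a17 and Cyp313a2 the deposited difference was -0.01 and -0.07. Cyp313a2 had deposited values between -0.08 and 0.11, so it came close to the flat rows. At or below 0.65-fold were 2 members, Cyp6a18 at -0.81 and Cyp6g2 at -0.75 (2.35% of members, 0.453% of all genes). Against the ribosomal protein genes both were within the threshold, at -0.57 and -0.51. As deposited, 1 member was at or above 1.5-fold (0.407% of all genes) and 60 were at or below 0.65-fold (63.5% of all genes). The median over the members was -0.15 (quartiles -0.26 and 0.20), beside -0.07 for all genes.

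Cyp6g2 (2R, 12188338 to 12190377, minus strand), which can metabolise insecticides and is active in the corpus allatum, had deposited values of -0.32 and 0.45 in w1118 flies without and with RU486, and of 0.28 and -0.41 in MEF2 RNAi flies. With RU486 it was higher in w1118 flies and lower in MEF2 RNAi flies on all 3 scales. The relative changes were 0.42 and -0.33, each under the threshold. Its neighbour Cyp6g1, the gene of DDT and neonicotinoid resistance, overlaps it by 94 bases on the opposite strand and had deposited values of -0.08 and 0.44 in w1118 flies and 0.02 and -0.38 in MEF2 RNAi flies. Cyp6g1 was high only in w1118 flies with RU486, and its relative changes were 0.16 and -0.04. Both genes were lower in MEF2 RNAi than in w1118 flies with RU486, by 0.51 for Cyp6g2 and 0.47 for Cyp6g1. Just above the lower threshold stood Cyp4g1, at -0.62 or 0.652-fold.

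By clan, the medians differed little. The relative change with RU486 in MEF2 RNAi flies had a median of -0.08 in the CYP3 clan, -0.07 in the CYP4 clan, -0.02 in the mitochondrial clan and -0.03 in the CYP2 clan. The corresponding medians in w1118 flies were 0.08, 0.07, 0.01 and -0.05. As deposited, the medians in MEF2 RNAi flies were -0.44, -0.43, -0.39 and -0.40. On the relative scale every member past a threshold in 1 of the 4 differences between single libraries was of the CYP3 clan, the largest, except Cyp4e3. All of the CYP3 ones were Cyp6a genes, but Cyp9c1 missed the lower threshold narrowly, at 0.655-fold between the genotypes without RU486. No mitochondrial or CYP2 member was past a threshold in these 4 differences on that scale. As deposited, CYP4 members such as Cyp4g1 and the mitochondrial Cyp12a5 and Cyp12b2 were past a threshold too, and no CYP2 member was.

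By family, Cyp6 with 25 members had medians of -0.08 and 0.04 with RU486 in MEF2 RNAi and in w1118 flies. Cyp4 with 22 members had -0.15 and 0.11, Cyp12 with 7 had -0.10 and 0.01, Cyp9 with 6 had -0.04 and 0.11, and Cyp28 with 4 had -0.03 and 0.11. Of these families only Cyp313 with 6 members had the opposite signs, 0.26 and -0.08, which as deposited became -0.11 in MEF2 RNAi flies, and 2 of its 6 genes were flat. The Cyp6a genes varied most among themselves, from -0.43 (Cyp6a23) to 1.68 (Cyp6a19) with RU486 in MEF2 RNAi flies, while the 3 Cyp6d genes lay between -0.19 and -0.08 and the 3 Cyp4ac genes between -0.21 and -0.05.

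Among genes with a known metabolic task, those of ecdysteroid metabolism are listed partly under their own symbols. The latter lie outside the rule, so they are in none of the member counts or clan medians above. Cyp18a1, which inactivates ecdysteroids, had deposited values of -0.19, 0.24, 0.22 and -0.27, close to the library medians. Cyp6t3, which acts in ecdysone synthesis in the larval prothoracic gland, had 0.05, 0.19, -0.03 and -0.22, so it was lower in MEF2 RNAi flies in both treatments, by 0.45 without and 0.07 with RU486 on the relative scale. Of the 8 synthesis genes under their own symbols (dib, phm, spo, spok, shd, sad, nvd and sro), 4 were flat, and none was past a threshold in the 4 differences between single libraries on the relative scale. shd, which makes the active 20-hydroxyecdysone in peripheral tissues, had -0.27, 0.37, 0.21 and -0.30, and as deposited it was past a threshold with RU486 in w1118 flies (0.64) and between the genotypes with RU486 (-0.67). The other cuticle and bristle genes, Cyp301a1 and Cyp303a1, had relative changes with RU486 between -0.07 and 0.06 in both genotypes.

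Of the 12 genes listed for insecticides and xenobiotics, only Cyp6a2 was past a threshold on the relative scale in a difference between single libraries, in the genotype difference without RU486. As deposited, Cyp6g2 was past a threshold in all 4 of these differences, Cyp6a2 in 2 and Cyp6g1 in 1. The median relative change of the 12 with RU486 was -0.06 in MEF2 RNAi and 0.10 in w1118 flies. Cyp12a4, of lufenuron resistance, had changes of -0.20 and 0.10, Cyp6w1 of 0.08 and 0.11, Cyp6d5 of -0.14 and 0.04, Cyp28a5 of -0.08 and 0.14, Cyp6a9 of -0.15 and 0.11 and Cyp6a21 of 0.00 and 0.03 in MEF2 RNAi and w1118 flies. The near-identical copies Cyp12d1-d and Cyp12d1-p, both drug-inducible, can exchange reads in counting. Cyp12d1-d was flat and Cyp12d1-p had deposited values of -0.03, 0.06, 0.10 and -0.13. In the behaviour list, Cyp6a20, a gene of male aggression, lay close to the library medians with values of -0.23, 0.26, 0.22 and -0.25, unlike Cyp6a17 and Cyp4d21.

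Position on the chromosomes was compared with expression. In the BDGP6 annotation 35 members lay on 2R, 16 on 3R, 14 on 2L, 14 on X and 6 on 3L. Chaining members within 10 kb of each other gave 8 rows of 3 or more genes, which held 30 members. The longest row has 9 genes on 2R in the order Cyp6a22, Cyp6a17, Cyp6a23, Cyp6a19, Cyp6a9, Cyp6a20, Cyp6a21, Cyp6a8 and Cyp317a1. Next neighbours differed widely: with RU486 in MEF2 RNAi flies the relative changes along the row were 0.06, 0.82, -0.43, 1.68, -0.15, -0.11, 0.00, 0.51 and -0.14. Cyp6a17 and Cyp6a23, tandem copies of related sequence, were lowest and highest in the same library, MEF2 RNAi flies without RU486, where their deposited values were -0.42 and 0.43. How the counting divided reads between them is not known.

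**Figure D5:**
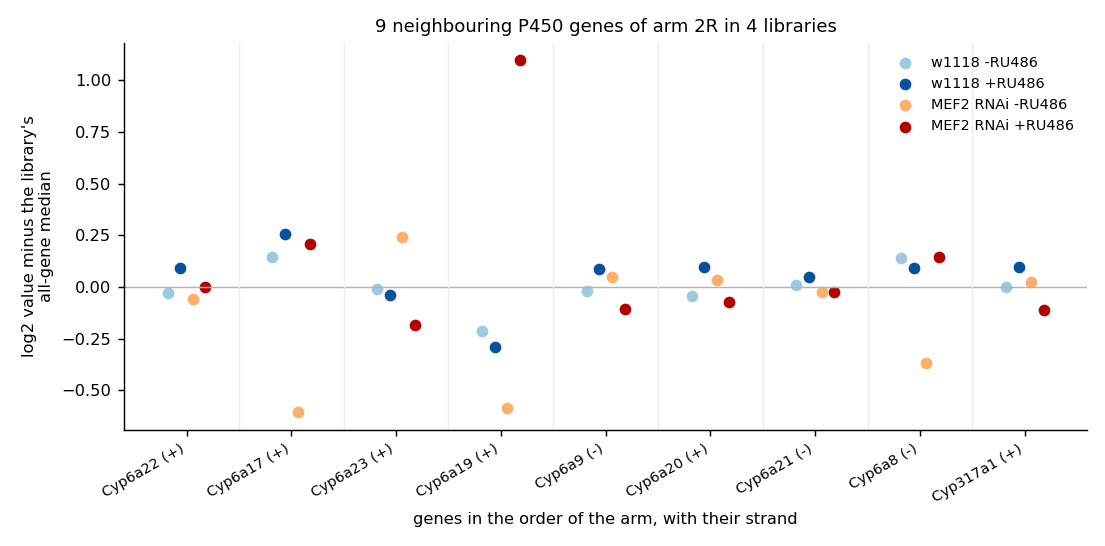
Relative log2 values (vertical axis) of the 9 neighbouring P450 genes of arm 2R in chromosome order (horizontal axis, strand in brackets), 1 point for each library. Cyp6a19 in MEF2 RNAi flies with RU486 stands at 1.10, far above its neighbours. In MEF2 RNAi flies without RU486, Cyp6a17 (-0.61), Cyp6a19 (-0.59) and Cyp6a8 (-0.37) are low. Cyp6a22, Cyp6a9, Cyp6a20, Cyp6a21 and Cyp317a1 stay near 0 in all 4 libraries.

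A shorter row held a pair of genes with similar values. On the X chromosome Cyp4d14, Cyp4d2 and Cyp4ae1 had relative changes with RU486 of -0.38, -0.17 and -0.38 in MEF2 RNAi flies and of -0.25, 0.11 and -0.27 in w1118 flies. Cyp4d14 (X, 2173415 to 2175315, minus strand) and Cyp4ae1 (X, 2179007 to 2180998, plus strand) flank Cyp4d2. On the relative scale Cyp4d2 did not share their lower value with RU486 in w1118 flies. As deposited, Cyp4d14, Cyp4d2 and Cyp4ae1 were higher with RU486 in w1118 flies, by 0.095, 0.46 and 0.083. The deposited values of Cyp4ae1 were -0.08, 0.00, 0.42 and -0.33 and those of Cyp4d14 were -0.02, 0.08, 0.34 and -0.40. The row Cyp313a5, Cyp313a2 and Cyp313a3 held 2 flat genes and the nearly flat Cyp313a2. Of the 85 members, 43 overlap another annotated entry, which in some cases is a transposon insertion or a small RNA. In 8 of them an overlapping entry is on the same strand, where reads of both can be counted together. The kit keeps strand, but whether the counting used it is not given in the sources used here.

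Cyp1, the cyclophilin gene that met the rule by its symbol only, had deposited values of -0.29, 0.17, 0.28 and -0.16 in the order used above and was within the thresholds in all 5 differences on the relative scale, while as deposited its difference of the RU486 changes was -0.91.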

How the data were processed

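Thorax RNA of 4 conditions was measured with 1 library each and grouped by the sample labels. The authors deposited 1 table of log2 values, already centred per gene, whose 4 values sum to 0 within 7.0e-15. A stranded total RNA kit was used per the labels. The aligner, counting, genome build and normalization are not given in the sources used here. Depth is therefore unknown, and a gene of few reads cannot be told from a steady one. All 4 columns were used and 0 were of other series.

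The all-gene median of each library was subtracted and differences between libraries were taken. Thresholds (1.5 and 0.65) follow the legends of the study. The alternatives were the deposited values, the median of 86 ribosomal protein genes as reference, flat rows left out, and a fold of 2 or 0.5. The means over genotypes or treatments were added after seeing the data. The genes named are the 5 highest and 5 lowest members of each difference that are not flat, members past a threshold with RU486 in both genotypes, and all members of the lists of roles. The members, the gene lists and the markers were chosen with earlier results of these data known. Any other gene was singled out with its values in view.

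Positions are from the BDGP6 annotation (Ensembl release 115). No sequence is shown. The calculations used Python 3.11.15, numpy 2.4.6, pandas 2.3.3 and matplotlib 3.10.9 and were tested on simulated data.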

Additional observations from a re-analysis of the deposited data

Results flagged for a closer look

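Cyp6g2 was the only one of the 85 P450 genes that was not flat, had opposite signs of the RU486 change in the genotypes on all 3 scales, and had a difference of these changes past a threshold on the relative scale. Its relative RU486 change was 0.42 in the controls and -0.33 with the RNAi construct, so the second minus the first was -0.75. As deposited the changes were 0.77 and -0.69 (difference -1.46), and against the ribosomal protein genes they were 0.28 and -0.22, where the difference of -0.51 was under the threshold. None of these differences was tested, since each value rests on 1 library. Cyp6g2 overlaps Cyp6g1 by 94 bases, and the part of shared reads in these values was not tested.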

How the results depend on the processing

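No paired analysis was possible because every condition had a single library and no result came from a test, and for the same reason no library could be left out. Counts at or above 1.5-fold are called up and counts at or below 0.65-fold down. With the values as deposited, the median of the members moved to -0.44 (1 up, 10 down) for RU486 in MEF2 RNAi flies, 0.39 (9 up) for RU486 in w1118 flies, 0.39 (13 up, 0 down) for the genotypes without RU486, -0.41 (1 up, 9 down) for the genotypes with RU486 and -0.86 (1 up, 60 down) for the difference of RU486 changes. In that difference the deposited values of 5 genes had the other sign: Cyp313a2 at -0.073, Cyp313a5 at -0.0065, Cyp316a1 at -0.063, Cyp4c3 at -0.10 and Cyp6a17 at -0.0091. With ribosomal protein genes as reference, the first 3 medians became 0.027 (5 up), -0.093 and -0.16 (1 up, 6 down), and the difference of RU486 changes became 0.093 (17 up, 0 down). The mean genotype difference then had 1 up. With flat rows left out, the genotypes without RU486 had 2 down and the difference of RU486 changes had 5 up. At 2-fold or 0.5-fold, RU486 in MEF2 RNAi flies had 1 up, the genotypes without RU486 had 0 up and 0 down, the genotypes with RU486 had 1 up, the difference of RU486 changes had 1 up and 0 down, the mean RU486 change had 0 up, and the mean genotype difference had 0 up and 0 down. The other medians and counts, 19 with flat rows left out, 5 at the stricter folds, 11 with the ribosomal reference and 7 as deposited, stayed within 0.1 (log2) or 1.5 times. Of the 24 values of single genes past a threshold, 14 moved by 0.1 or more as deposited with the sign kept and 16 with the ribosomal reference. The cause of the different library levels, on which the scale bears, was not tested. In the 5 differences, the past-threshold calls that held on all 3 scales were those of Cyp6a19 (RU486 in MEF2 RNAi flies, genotypes with RU486, difference of RU486 changes), Cyp6a18 (RU486 in w1118 flies, genotypes with RU486) and Cyp4e3 (genotypes without RU486). Each rests on single libraries of unknown depth.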
